A study of Mus musculus with 8 samples.

Results

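The 9 genes described here encode 4 semaphorins (Sema4a, Sema4b, Sema4d and Sema7a), 4 plexins (Plxnb1, Plxnb2, Plxnc1 and Plxnd1) and the co-receptor neuropilin 1 (Nrp1). They were taken by symbol from the 53465 genes of each deposited count table and belong to a mouse family of 31 genes, 20 semaphorins, 9 plexins and 2 neuropilins. The list was drawn up with the strain comparison of these libraries known, and Sema4d was put on it because it had been seen lower in NOD. The strain differences of the 9 genes are therefore given as a description. No p-value is printed for them, and whether a member passed the threshold of the test over all genes is part of that description. The other 22 family genes and 49 genes of binding partners, proteases and downstream proteins are given with the test over all genes.

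RNA came from live single CD4+ CD8+ (double-positive) thymocytes sorted from thymi of C57BL/6J mice and of NOD/ShiLtJ (NOD) mice, the inbred model of autoimmune diabetes. No treatment, age or engineered allele was given in the labels. Each strain has 4 libraries, and those that share a strain and a B number in their titles were summed, which left 2 samples per strain, called samples 1 and 2. Whether a B number stands for an animal of its own is not in the labels, so every SD, SE and p-value covers the spread of these samples alone, and that spread may be technical. The series concerns genetic variation in type 1 diabetes and chromatin folding in T cells, and its RNA part allows genes to be compared between the strains.

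Semaphorins are secreted or membrane-bound guidance proteins that share a sema domain, and plexins are their main receptors, with an intracellular domain that acts on small GTPases of the Rap and Ras families. Neuropilins have short intracellular tails and work as co-receptors. In the thymus, plexin-D1 on double-positive cells binds semaphorin-3E of the medulla and dampens signalling of the chemokine receptor CCR9, which governs the movement of selected cells from cortex to medulla. Sema4d (CD100) is abundant on T cells and binds plexin-B1, plexin-B2 and, on B cells and other antigen-presenting cells, CD72. Sema7a is anchored to the membrane by a lipid and binds plexin-C1 and integrins with the beta 1 chain.

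The libraries held 8.527 to 15.702 M reads in genes in C57BL/6J and 23.533 to 30.371 M in NOD. Cd4 stood at 1251 ± 159 CPM (reads of a gene per 1000000 reads in genes) in C57BL/6J and 1293 ± 66.4 in NOD, and Cd8a at 1563 ± 120 and 1660 ± 30.04 CPM, so both defining markers of the sorted stage were abundant. Values with ± are means and SD over the 2 summed samples per strain, unless marked SE or attached to a log2 fold change, where ± is the SE. Of the 8 markers of blood vessel cells, which also use Plxnd1 and Nrp1, Emcn had no read in any library and Cdh5 was at most 0.480 CPM in a library. Pecam1 stood at 122 to 161 CPM. Eng had 6.63 ± 2.67 CPM in C57BL/6J and 5.19 ± 0.700 in NOD, and Kdr 0.147 ± 0.0209 and 0.470 ± 0.0167 CPM. Of the 8, 3 were tested, 1 with a positive and 2 with a negative log2 fold change. In edgeR 0 of these 3 were called, against 3.68% of all tested genes. The summed level of 8 dendritic cell markers was 12.2 to 19.98 CPM in the C57BL/6J libraries and 27.6 to 35.9 CPM in the NOD libraries, and that of 8 macrophage markers was 8.38 to 15.2 and 13.03 to 26.4 CPM. No gene of these 2 lists was at 0 in all libraries.

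The windows around the annotated starts of 3 members show the sequence context of the 2 genes that were lower in NOD and of the most abundant member. Each runs from 250 bases before to 50 bases after a RefSeq start (GRCm38.p6), 5′ to 3′ on the gene's strand. All 9 members had at least 1 window in this RefSeq table. Capitals mark matches on either strand to GGGCGG (the GC box bound by Sp and KLF factors), CAGGAAG (an ETS core) and TGTGGT (a RUNX core).
Sema4d, chr13:51756634-51756933 (minus strand): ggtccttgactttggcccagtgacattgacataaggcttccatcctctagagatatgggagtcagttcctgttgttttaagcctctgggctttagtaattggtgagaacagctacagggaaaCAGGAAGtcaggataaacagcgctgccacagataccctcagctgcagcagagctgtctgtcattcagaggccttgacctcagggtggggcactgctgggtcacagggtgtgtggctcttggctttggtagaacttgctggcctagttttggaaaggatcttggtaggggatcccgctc
Sema4d, chr13:51748761-51749060 (minus strand): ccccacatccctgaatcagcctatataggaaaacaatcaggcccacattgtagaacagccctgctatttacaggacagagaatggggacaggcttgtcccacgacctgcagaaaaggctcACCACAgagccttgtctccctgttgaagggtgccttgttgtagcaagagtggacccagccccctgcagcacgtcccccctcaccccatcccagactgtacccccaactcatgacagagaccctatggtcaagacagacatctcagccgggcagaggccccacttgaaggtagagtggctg
Sema4d, chr13:51739397-51739696 (minus strand): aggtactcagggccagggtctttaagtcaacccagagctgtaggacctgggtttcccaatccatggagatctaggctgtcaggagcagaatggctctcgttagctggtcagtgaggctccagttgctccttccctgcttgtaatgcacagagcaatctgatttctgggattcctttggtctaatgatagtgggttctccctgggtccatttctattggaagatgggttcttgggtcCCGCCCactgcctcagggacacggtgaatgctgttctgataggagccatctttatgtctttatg
Sema7a, chr9:57939862-57940161 (plus strand): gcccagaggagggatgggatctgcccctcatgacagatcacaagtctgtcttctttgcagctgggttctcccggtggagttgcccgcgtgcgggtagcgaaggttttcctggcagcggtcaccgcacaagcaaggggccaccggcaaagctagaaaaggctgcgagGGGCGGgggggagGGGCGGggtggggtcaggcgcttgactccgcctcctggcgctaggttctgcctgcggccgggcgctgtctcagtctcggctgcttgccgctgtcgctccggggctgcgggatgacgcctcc
Plxnd1, chr6:115994956-115995255 (minus strand): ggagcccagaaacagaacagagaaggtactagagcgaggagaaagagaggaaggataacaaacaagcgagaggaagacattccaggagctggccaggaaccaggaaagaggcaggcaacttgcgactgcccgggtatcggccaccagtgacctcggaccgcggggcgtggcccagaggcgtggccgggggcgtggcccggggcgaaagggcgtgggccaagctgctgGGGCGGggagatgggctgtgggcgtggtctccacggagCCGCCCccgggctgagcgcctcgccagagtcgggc

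The 3 Sema4d windows were poor in CG dinucleotides, with 2, 3 and 3 in the order printed, against 23 in the Sema7a window and 23 in the Plxnd1 window. Over all 32851 windows of the table the median was 7, with quartiles of 3 and 20. Sema7a and Plxnd1 each held 2 matches to GGGCGG, and of the Sema4d windows 1 held a single match. GGGCGG occurred in 35.7% of all windows, TGTGGT in 16.8% and CAGGAAG in 13.3%. GENCODE M21 places the outermost Sema4d start further upstream, at the end of the gene interval given below, and the sequence there is not shown. A match describes letters in these windows, not binding.

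Sema4d was the member that differed most between the strains. In C57BL/6J its level was 422.1 and 371.2 CPM in the libraries of sample 1 and 383.5 and 360.4 CPM in those of sample 2. In NOD it was 175.4 and 155.5 CPM in sample 1 and 169.9 and 162.1 CPM in sample 2. All 4 NOD libraries lay below all 4 C57BL/6J libraries, and within a strain the highest library exceeded the lowest 1.17-fold in C57BL/6J and 1.13-fold in NOD. The gene (ENSMUSG00000021451, GRCm38, chromosome 13, 51685529 to 51793747, minus strand, protein-coding) went from 384 ± 13.6 to 167 ± 0.0527 CPM, a log2 fold change of -1.20 ± 0.16 (SE), or 2.30-fold lower in NOD. It encodes the semaphorin CD100, which is released from the cell surface by metalloproteases. The summed level of 12 double-positive markers was also lower in NOD, at 22971 to 26847 CPM in the C57BL/6J libraries and 18277 to 21073 CPM in the NOD libraries, and its part in the Sema4d values was not tested. Rag1, the recombinase subunit of this stage and one of these markers, stood at 8998 ± 796 and 5902 ± 950 CPM (adjusted p = 0.217 in edgeR).

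Sema7a, the membrane-anchored ligand of plexin-C1 and beta 1 integrins, was also lower in NOD. Its level was 77.7 and 74.1 CPM in C57BL/6J sample 1 and 69.0 and 65.8 CPM in sample 2. It was 38.8 and 38.2 CPM in NOD sample 1 and 40.3 and 41.6 CPM in sample 2. No NOD library reached the lowest C57BL/6J library. The gene (ENSMUSG00000038264, chromosome 9, 57940112 to 57962865, plus strand, protein-coding) went from 71.3 ± 5.14 to 39.9 ± 1.61 CPM, a log2 fold change of -0.84 ± 0.17, or 1.79-fold lower. It no longer passed the threshold of an adjusted p of 0.05 without C57BL/6J sample 1 (log2 fold change -0.77 ± 0.23), without C57BL/6J sample 2 (-0.92 ± 0.23) or with the B number as a replicate block (-0.84 ± 0.21).

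The other listed class 4 semaphorins did not pass the threshold. Sema4b stood at 33.2 to 42.7 CPM in the C57BL/6J libraries and 37.4 to 40.9 CPM in the NOD libraries, and the NOD range lay inside that of C57BL/6J (log2 fold change 0.056 ± 0.18). Sema4a, a semaphorin best known from dendritic cells and T cell priming, was low. Its level was 3.68 and 2.14 CPM in C57BL/6J sample 1 and 3.78 and 3.32 CPM in sample 2, against 5.50 and 5.17 CPM in NOD sample 1 and 3.79 and 5.67 CPM in sample 2. The lowest NOD library (3.79 CPM) was just above the highest C57BL/6J library (3.78 CPM), and the log2 fold change of 0.61 ± 0.36 did not pass the threshold. The summed dendritic cell markers given above were also higher in the NOD libraries, and their part in the Sema4a values was not tested.

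Of the 9 members, 2 passed an adjusted p of 0.05 in edgeR, both lower in NOD, against 3.68% of the 17291 genes tested in either direction and 1.78% in the lower direction. The strains' libraries did not overlap for 3 of the 9 (Sema4d, Sema7a and, narrowly, Sema4a), against 17.1% of all tested genes (8.14% with NOD above and 8.99% with NOD below). As the list was made with this contrast known, nothing is read from these shares. The median log2 fold change of the 9 was 0.056, and that of all tested genes was 0.020.

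**Figure D1:**
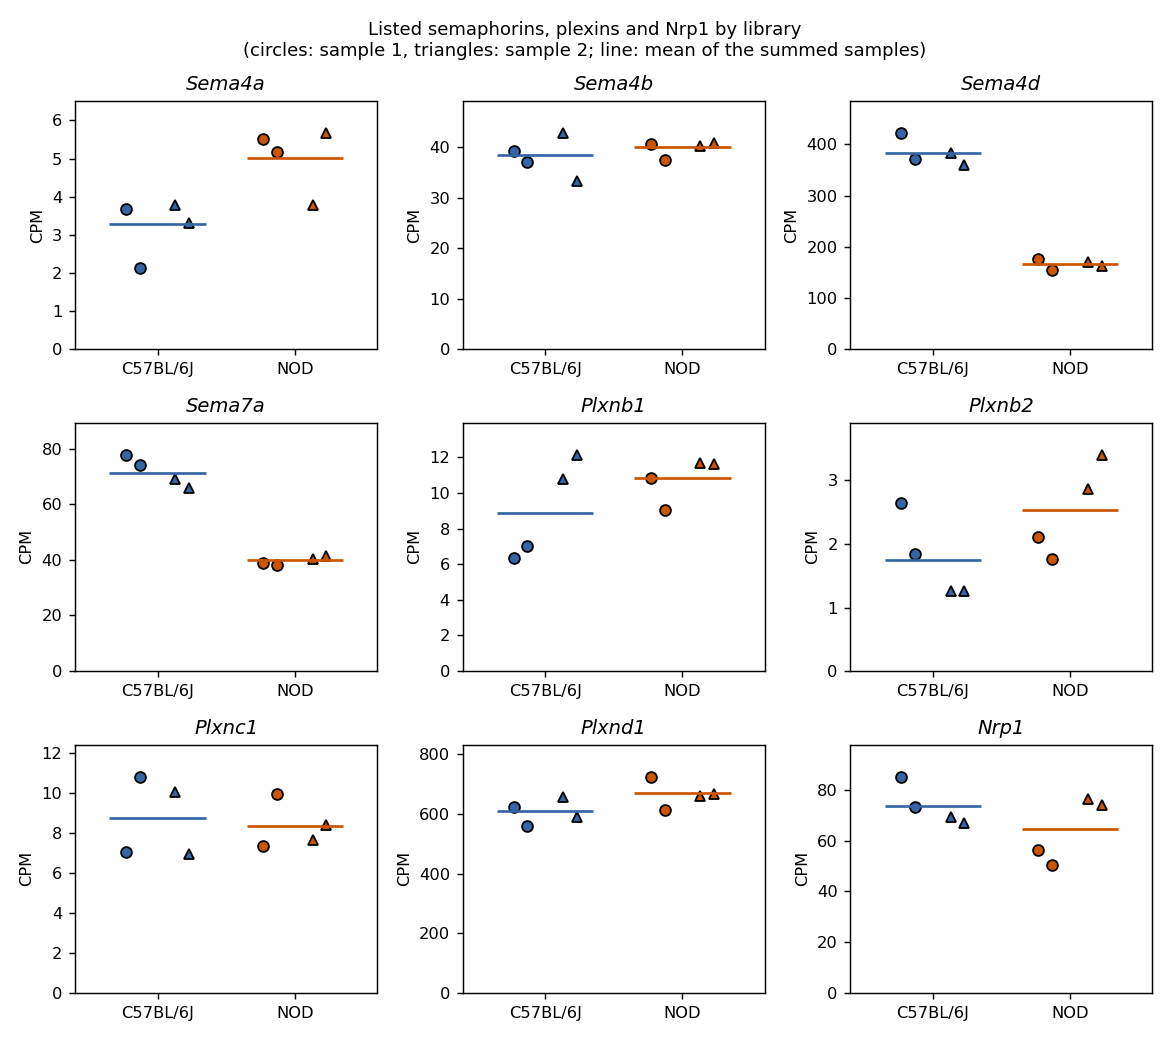
CPM of the 9 listed genes (y axis, from 0) in each of the 8 libraries (x axis, by strain; circles are libraries of sample 1, triangles of sample 2, and the line is the mean of the 2 summed samples). Sema4d and Sema7a are separated by strain. Within both strains, the libraries of Sema7a, Plxnb1, Plxnb2 and Nrp1 are also separated by sample.

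Plxnd1, the plexin that positions double-positive cells, had the highest level per length of all family genes in both strains, as shown further on. Its level was 623.7 and 558.0 CPM in the libraries of C57BL/6J sample 1 and 656.2 and 590.8 CPM in those of sample 2. In NOD it was 724.1 and 614.5 CPM in sample 1 and 659.7 and 667.0 CPM in sample 2. The ranges overlapped, and the gene (ENSMUSG00000030123, chromosome 6, 115954811 to 115995005, minus strand, protein-coding) stood at 609 ± 32.3 and 669 ± 6.90 CPM, a log2 fold change of 0.14 ± 0.16. Its ligand Sema3e had 0 reads in C57BL/6J, which allows a level of up to 0.0625 CPM (3 counts over the strain, counting error only), and 4 reads in NOD. Ccr9, the chemokine receptor that plexin-D1 restrains, stood at 1099 ± 25.5 and 1248 ± 284 CPM (log2 fold change 0.18 ± 0.20, adjusted p = 0.822 in edgeR). Of 5 chemokine and egress receptors of migrating thymocytes (Ccr9, Cxcr4, Ccr4, Ccr7 and S1pr1), 0 passed the test in edgeR, 0 in DESeq2, and 0 had an unadjusted p under 0.05. Among all tested genes these shares were 3.68% in edgeR, 937 of 17291 in DESeq2 and 13.1% at an unadjusted p under 0.05. The 0 of 5 is therefore near the background. Ccr9 differed between the NOD samples, with 1442 and 1441 CPM in sample 1 and 1092 and 990.3 CPM in sample 2.

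The plexin receptors of Sema4d and Sema7a were low. Plxnb1, the high-affinity receptor of Sema4d and a binding partner of guanine nucleotide exchange factors, varied more between the C57BL/6J samples than between the strains. Its level was 6.33 and 7.04 CPM in C57BL/6J sample 1 and 10.8 and 12.1 CPM in sample 2, against 9.05 to 11.7 CPM in the NOD libraries. The log2 fold change was 0.29 ± 0.33, and it was -0.053 without C57BL/6J sample 1. Plxnb2, another receptor of class 4 semaphorins, stood at 2.64 and 1.84 CPM in C57BL/6J sample 1 and 1.26 and 1.26 CPM in sample 2. In NOD it was 2.10 and 1.77 CPM in sample 1 and 2.87 and 3.40 CPM in sample 2. The log2 fold change was 0.54 ± 0.47, from 11 to 33 reads per C57BL/6J library and 41 to 90 per NOD library. Plxnc1, the plexin of Sema7a, stood at 6.98 to 10.8 CPM and 7.36 to 9.95 CPM (-0.070 ± 0.28).

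Nrp1, a co-receptor of class 3 semaphorins and of vascular endothelial growth factor that also marks regulatory T cells of thymic origin, differed between the NOD samples. Its level was 56.2 and 50.5 CPM in NOD sample 1 and 76.6 and 73.97 CPM in NOD sample 2, while the C57BL/6J libraries stood at 67.2 to 85.1 CPM. The libraries of NOD sample 1 lay below all C57BL/6J libraries and those of NOD sample 2 among them. The log2 fold change over both samples was -0.19 ± 0.20, and it was 0.039 without NOD sample 1. Foxp3, the regulatory T cell factor, had 0.488 ± 0.0595 and 1.31 ± 0.0164 CPM in C57BL/6J and NOD (adjusted p = 0.216 in edgeR). It is 1 of 10 single-positive markers, of which 9 had a positive log2 fold change and 1 a negative (median 0.59). In edgeR 0 of the 10 were called, against 3.68% of all tested genes. In DESeq2 2 were called, against 937 of all 17291 tested genes. The part of these markers in the Nrp1 values was not tested.

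Levels of different genes were compared as CPM per kilobase of exon (RPKM), with exons joined over all GENCODE M21 transcripts of a gene. The order in C57BL/6J was Plxnd1 (83.3 ± 4.42 RPKM), Sema4d (49.999 ± 1.78), Sema7a (21.6 ± 1.56), Nrp1 (7.51 ± 0.744), Sema4b (6.81 ± 0.201), Plxnc1 (1.05 ± 0.0329), Plxnb1 (0.926 ± 0.346), Sema4a (0.607 ± 0.0847) and Plxnb2 (0.227 ± 0.0912). The samples of Plxnc1 and Plxnb1 overlapped in this order. Nrp1 and Sema4b, and Plxnb1 and Sema4a, differed by less than 1 SD of the more variable gene and are not separated either. In NOD the first 3 places were held by the same genes, at 91.7 ± 0.945 RPKM for Plxnd1, 21.7 ± 0.00686 for Sema4d and 12.1 ± 0.487 for Sema7a. Sema4b (7.08 ± 0.172) and Nrp1 (6.60 ± 1.58) overlapped there, as did Plxnc1 (1.00 ± 0.0521) and Sema4a (0.929 ± 0.0906), with Plxnb1 at 1.13 ± 0.123 and Plxnb2 last at 0.328 ± 0.107 RPKM.

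The family was dominated by few genes on this per-length scale. Sema4d made up 61.7% ± 0.336 of the summed RPKM of all 20 semaphorins in C57BL/6J and 48.3% ± 0.930 in NOD. Sema7a made up 26.7% ± 0.830 and 26.9% ± 0.557, and Sema4b 8.41% ± 0.592 and 15.7% ± 0.0746. The summed semaphorin level was 81.0 ± 3.32 RPKM in C57BL/6J and 44.97 ± 0.880 RPKM in NOD. Plxnd1 made up 95.1% ± 0.413 and 91.99% ± 0.0852 of the summed RPKM of the 9 plexins. The summed plexin level was 87.6 ± 5.03 RPKM in C57BL/6J and 99.7 ± 1.12 RPKM in NOD.

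**Figure D2:**
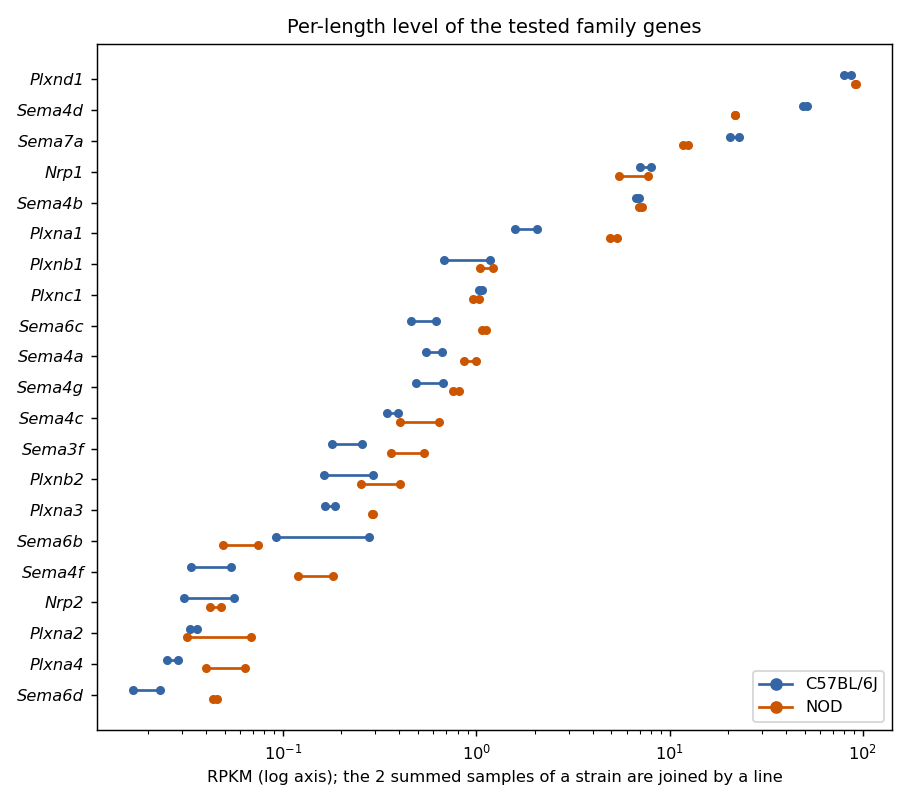
RPKM (x axis, log scale) of the 21 family genes that passed the filter on low counts, by gene (y axis), with the 2 summed samples of each strain joined by a line. Plxnd1 is highest in both strains at 83.3 and 91.7 RPKM on average, and Sema4d is second at 49.999 and 21.7 RPKM.

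Among the 22 family genes that were not listed, Plxna1 was higher in NOD. It encodes plexin-A1, a receptor of class 3 and class 6 semaphorins known from axon guidance and from dendritic cells. Its level was 14.7 and 14.6 CPM in C57BL/6J sample 1 and 19.3 and 17.8 CPM in sample 2, against 53.5 and 42.4 CPM in NOD sample 1 and 45.9 and 42.6 CPM in NOD sample 2. All NOD libraries were at least 2 times the highest C57BL/6J library. The gene (ENSMUSG00000030084, chromosome 6, 89316314 to 89362620, protein-coding) went from 16.6 ± 3.06 to 46.4 ± 2.77 CPM, a log2 fold change of 1.49 ± 0.21 (adjusted p = 0.00484 over all genes in edgeR), or 2.80-fold higher. Without C57BL/6J sample 1 the log2 fold change was 1.30 ± 0.27 and the adjusted p 0.0638. The dendritic cell markers given above, whose summed level did not overlap between the strains, moved with it, and their part was not tested. Of the 8 markers, Cd74 (10.4 ± 1.22 and 18.7 ± 2.03 CPM) and H2-Aa (3.28 ± 0.110 and 7.60 ± 0.754 CPM), genes of antigen presentation by class II molecules, carried most of that sum. Markers of narrower use were low. Higher in NOD were Itgax (0.289 ± 0.222 and 0.584 ± 0.00347 CPM) and Flt3 (0.503 ± 0.149 and 0.789 ± 0.256 CPM). So were Siglech (0.970 ± 0.0606 and 2.06 ± 0.522 CPM) and Clec9a (0.0423 ± 0.00257 and 0.191 ± 0.00378 CPM). Lower were Zbtb46 (0.289 ± 0.222 and 0.198 ± 0.105 CPM) and Xcr1 (0.168 ± 0.0496 and 0.0915 ± 0.0701 CPM). Clec9a, Zbtb46 and Xcr1 did not pass the filter on low counts. Of the 8 markers 5 were tested, all 5 with a positive log2 fold change (median 0.99). Zbtb46 and Xcr1, the markers lower in NOD, are not among the 5. The filter can keep a gene for its level in 1 strain alone, so the 5 do not stand for all 8. Itgax, with 14 reads over the C57BL/6J libraries and 61 over the NOD libraries, may have passed it for its level in NOD. In edgeR 0 of the 5 were called, against 3.68% of all tested genes. In DESeq2 2 were called, against 937 of all 17291 tested genes. At an unadjusted p under 0.05 in edgeR there were 3 of 5, against 13.1% of all tested genes.

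Of these 22 genes, 12 passed the filter on low counts, and 1 of the 12 was called higher and 0 lower in edgeR and in DESeq2. Of all 17291 tested genes, 1.91% were called higher and 1.78% lower in edgeR, and 479 higher and 458 lower in DESeq2. The filter can keep a gene for its level in 1 strain alone, so the 12 do not stand for all 22. Their median log2 fold change was 0.84, with 11 positive and 1 negative, against 0.020 for all tested genes. At an unadjusted p under 0.05 there were 5 of 12, against 2268 of all 17291 tested genes (13.1%). Most were low, and the highest value of the 11 that were not called was 8.07 CPM in any NOD library.

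Ligands among them were at most a few CPM. Sema6c, a membrane ligand of class A plexins, stood at 2.45 to 3.91 CPM in C57BL/6J and 6.29 to 6.91 CPM in NOD (log2 fold change 1.01 ± 0.35, adjusted p = 0.208 in edgeR), and Sema3f, a secreted ligand that signals through neuropilin-2, at 1.13 ± 0.278 and 2.33 ± 0.624 CPM (1.05 ± 0.46, adjusted p = 0.374). Sema4f had 0.230 ± 0.0757 and 0.800 ± 0.233 CPM (adjusted p = 0.226) and Sema6d 0.210 ± 0.0470 and 0.470 ± 0.0167 CPM (adjusted p = 0.550). In these 4 genes the strains' libraries did not overlap and NOD was the higher strain, although none passed the test. Of all tested genes, 8.14% had their NOD libraries above in this way. Sema4f and Sema6d had 11 and 10 reads over the C57BL/6J libraries, and 82 and 49 over the NOD libraries. Both may have passed the filter for their level in NOD alone. Sema4g stood at 5.02 ± 1.14 and 6.82 ± 0.334 CPM (adjusted p = 0.703) and Sema4c at 1.70 ± 0.163 and 2.40 ± 0.778 CPM (adjusted p = 0.760). Sema6b was the single negative gene, at 0.735 ± 0.523 and 0.244 ± 0.0703 CPM (adjusted p = 0.378).

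The remaining receptors were as low. Plxna3 stood at 1.38 ± 0.114 and 2.29 ± 0.0217 CPM (adjusted p = 0.556 in edgeR), Plxna2 at 0.593 ± 0.0360 and 0.860 ± 0.443 CPM (adjusted p = 0.822) and Plxna4 at 0.379 ± 0.0367 and 0.733 ± 0.238 CPM (adjusted p = 0.607). Nrp2, the second neuropilin, stood at 0.514 ± 0.210 and 0.530 ± 0.0510 CPM (adjusted p = 0.985). The 10 genes that did not pass the filter had at most 23 reads over all 8 libraries, and they hold most class 3 semaphorins, the secreted class.

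**Figure D3:**
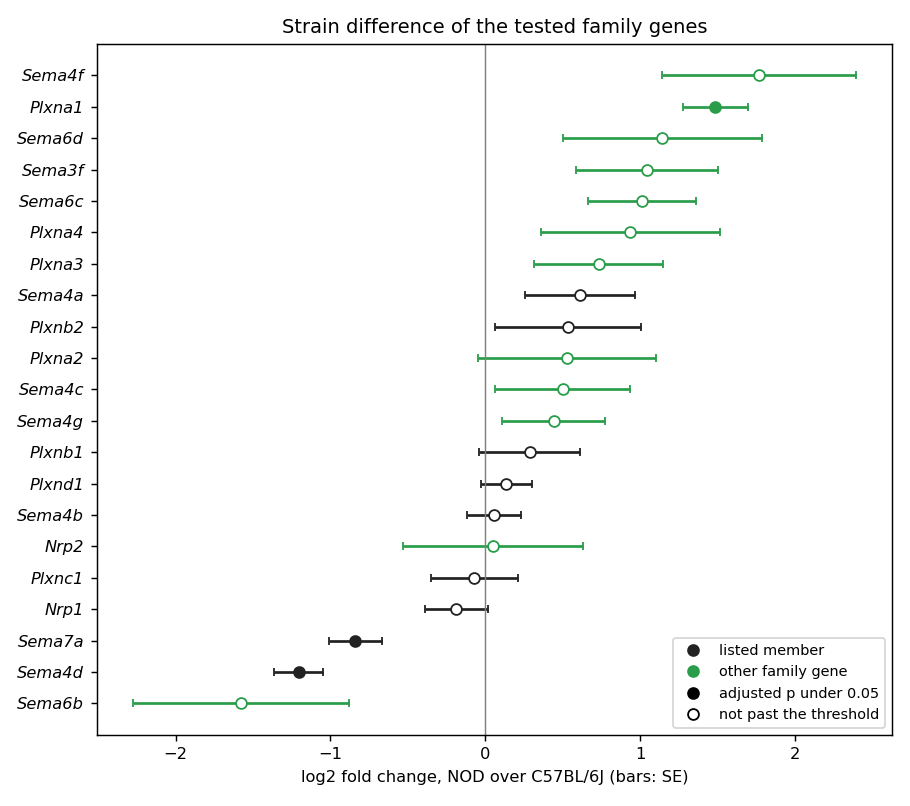
Log2 fold change, NOD over C57BL/6J (x axis, bars are SE), of the 21 tested family genes (y axis); black points are listed genes, green points other family genes, and filled points passed an adjusted p of 0.05. Plxna1 (1.49) is the only filled point on the right, and Sema4d (-1.20) and Sema7a (-0.84) are the filled points on the left.

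At the cell surface, semaphorins and plexins work with other receptors and with proteases. Of 14 such genes 9 were tested, and 1 was higher and 0 lower in NOD in edgeR and in DESeq2, against 1.91% and 1.78% of all tested genes in edgeR. In DESeq2, 479 of all 17291 tested genes were higher and 458 lower. At an unadjusted p under 0.05 there were 3 of 9 (Mmp14, Adam17 and Kdr), against 13.1% of all tested genes, and the median log2 fold change was 0.43. Kdr had 7 reads over the C57BL/6J libraries and 49 over the NOD libraries. It may have passed the filter for its level in NOD alone, so the 9 do not stand for all 14. Mmp14, a membrane-bound metalloprotease that can release Sema4d from cells, stood at 4.92 to 5.92 CPM in the C57BL/6J libraries, and at 16.3 and 14.6 CPM in NOD sample 1 and 11.5 and 13.1 CPM in NOD sample 2. The rise was from 5.25 ± 0.259 to 13.9 ± 2.32 CPM, or 1.41 ± 0.29 on the log2 scale (adjusted p = 0.0305 in edgeR). Omitting C57BL/6J sample 1 gave an adjusted p of 0.180, omitting C57BL/6J sample 2 gave 0.160, omitting NOD sample 1 gave 0.0853, and the replicate block gave 0.0673. Macrophage markers had 1 of 7 tested genes called in edgeR, against 3.68% of all tested genes. The called gene was Csf1r, at 0.643 ± 0.278 and 3.56 ± 0.366 CPM (adjusted p = 0.0233 in edgeR). Of the 7, 6 had a positive log2 fold change and 1 a negative, with a median of 0.29. C1qa stood at 1.54 ± 0.632 and 1.74 ± 0.439 CPM, C1qb at 1.70 ± 0.970 and 1.73 ± 0.968 CPM and Lyz2 at 3.85 ± 0.862 and 9.55 ± 3.43 CPM. The summed level of the macrophage markers, given above, overlapped between the strains, and their part in the Mmp14 values was not tested.

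The 3 surface genes with the highest mean CPM did not pass the test. Itgb1, the beta 1 integrin chain through which Sema7a acts, stood at 212 ± 10.9 and 203 ± 7.23 CPM (adjusted p = 0.935 in edgeR). Adam10, a protease that sheds many surface proteins, stood at 186 ± 2.81 and 161 ± 8.19 CPM (adjusted p = 0.701). Adam17, another such protease, stood at 92.7 ± 10.99 and 136 ± 7.30 CPM (log2 fold change 0.55 ± 0.17, adjusted p = 0.141), and its lowest NOD library exceeded the highest of C57BL/6J. Cd72, a receptor of Sema4d typical of B cells, stood at 0.801 ± 0.0709 and 0.858 ± 0.532 CPM (adjusted p = 0.968).

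Inside the cell, plexins act on small GTPases, their exchange factors and actin regulators. Of 35 such genes 29 were tested, and 1 was higher and 0 lower in NOD in edgeR and in DESeq2, a share near the 1.91% and 1.78% of all tested genes in edgeR. In DESeq2, 479 of all 17291 tested genes were higher and 458 lower. At an unadjusted p under 0.05 there were 3 of 29, also near the 13.1% of all tested genes, and the median log2 fold change was 0.021. Arhgef12, the guanine nucleotide exchange factor LARG that binds the intracellular tail of plexin-B1, had 2.96 and 1.73 CPM in C57BL/6J sample 1 and 3.28 and 4.69 CPM in sample 2, against 8.92 to 11.3 CPM in the 4 NOD libraries. The rise was from 3.08 ± 0.979 to 10.1 ± 0.135 CPM, or 1.71 ± 0.35 on the log2 scale (adjusted p = 0.0284 in edgeR). Omitting C57BL/6J sample 1 gave an adjusted p of 0.230, and the replicate block gave 0.0518. The summed dendritic cell markers were also higher in the NOD libraries, and their part was not tested. Arhgef11, the related exchange factor that binds the same tail, stood at 70.5 ± 17.4 and 52.96 ± 1.09 CPM (-0.41 ± 0.20, adjusted p = 0.449). Its highest NOD library was below the lowest of C57BL/6J.

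The 3 intracellular genes with the highest CPM over the mean of both strains did not pass the test. Rhoa, the GTPase activated through plexin-B1 and these exchange factors, stood at 424 ± 60.95 and 367 ± 16.2 CPM (adjusted p = 0.744 in edgeR). Gsk3b, a kinase of guidance signalling, stood at 286 ± 31.5 and 288 ± 15.6 CPM (adjusted p = 0.989). Rac1, a GTPase that plexin-B1 binds, stood at 231 ± 36.7 and 196 ± 26.7 CPM (adjusted p = 0.717). Gipc1, the adaptor that binds the tails of plexin-D1 and neuropilin-1, stood at 19.8 ± 4.04 and 20.9 ± 1.31 CPM (adjusted p = 0.941).

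**Figure D4:**
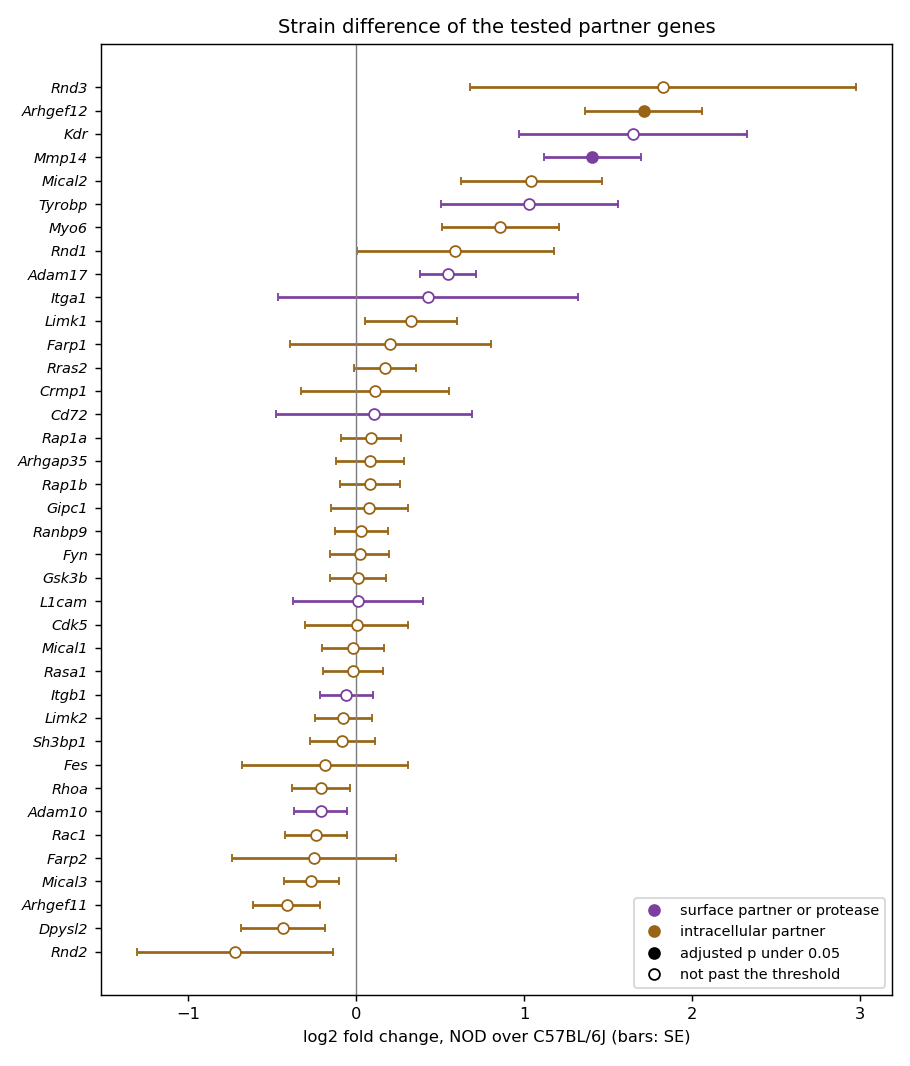
Log2 fold change, NOD over C57BL/6J (x axis, bars are SE), of the 38 tested partner genes (y axis), with surface partners and proteases in purple and intracellular partners in brown. Arhgef12 (1.71) and Mmp14 (1.41) are the filled points, which passed an adjusted p of 0.05.

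The genes next to the members were examined as well. For each of the 9 members and Plxna1 the 2 nearest tested protein-coding genes on either side were taken, a choice made after the data had been seen. Of these 40 neighbours 0 were called in edgeR, against 3.68% of all tested genes. In DESeq2 1 was called (Tmcc1), against 937 of all 17291 tested genes. At an unadjusted p under 0.05 there were 4 (Arid3b, Islr, Lmna and Tmcc1), against 13.1% of all tested genes. None of these shares is above the background. Secisbp2, which ends 1485 bases from Sema4d, stood at 56.9 and 61.2 CPM (log2 fold change 0.11 ± 0.18, adjusted p = 0.892 in edgeR). On the other side, Gadd45g, at 52931 bases, stood at 0.793 and 0.626 CPM (-0.33 ± 0.59). Beside Sema7a, Ubl7 stood at 55.5 and 42.8 CPM (-0.37 ± 0.19, adjusted p = 0.493). The next genes out came nearer to the threshold, with Arid3b at 73.2 and 115 CPM (0.65 ± 0.19, adjusted p = 0.129) and Islr at 0.628 and 0.0772 CPM (-2.97 ± 0.82, adjusted p = 0.100). Tmcc1, 23606 bases from Plxnd1, came nearest to the threshold in edgeR, at 88.5 and 182 CPM (1.04 ± 0.24, adjusted p = 0.0578).

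Reads counted for genes that overlap the members or Plxna1 were looked up. Ambiguous reads are not given by gene, so losses of that kind could not be counted. Genes that overlap a member on either strand had at most 325 reads over the 8 libraries, for Gm45206, which lies on the strand of Sema4b, and the antisense Gm7628 of Plxnb1 had 29. Gm44207, on the strand opposite to Plxna1, had 290. All reads were counted against the C57BL/6J genome build, and whether NOD reads were lost at sequence differences was not tested.

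The tested protein-coding genes whose levels were most like those of Sema4d over the 8 libraries were Ankrd50 (Pearson r = 0.998), Pou6f1 (0.998), Mvb12b (0.997), Slit3 (0.996) and Crtc3 (0.996). All 5 were lower in NOD, for example Slit3, a secreted guidance ligand of another family, at 4.30 and 0.0700 CPM. These libraries form 2 strains, so any gene with a similar separation scores high and the r is a description. For Plxnd1 they were Nckap5l (0.982), Nr4a1 (0.949), Apc2 (0.943), Foxj2 (0.924) and 1700030J22Rik (0.915). These r are the highest among all tested protein-coding genes over only 8 libraries, so they too are a description. Apc2 and 1700030J22Rik had mean levels of at most 1.81 CPM in either strain. Nr4a1, a nuclear receptor induced by T cell receptor signals, stood at 45.1 and 52.9 CPM.

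**Figure D5:**
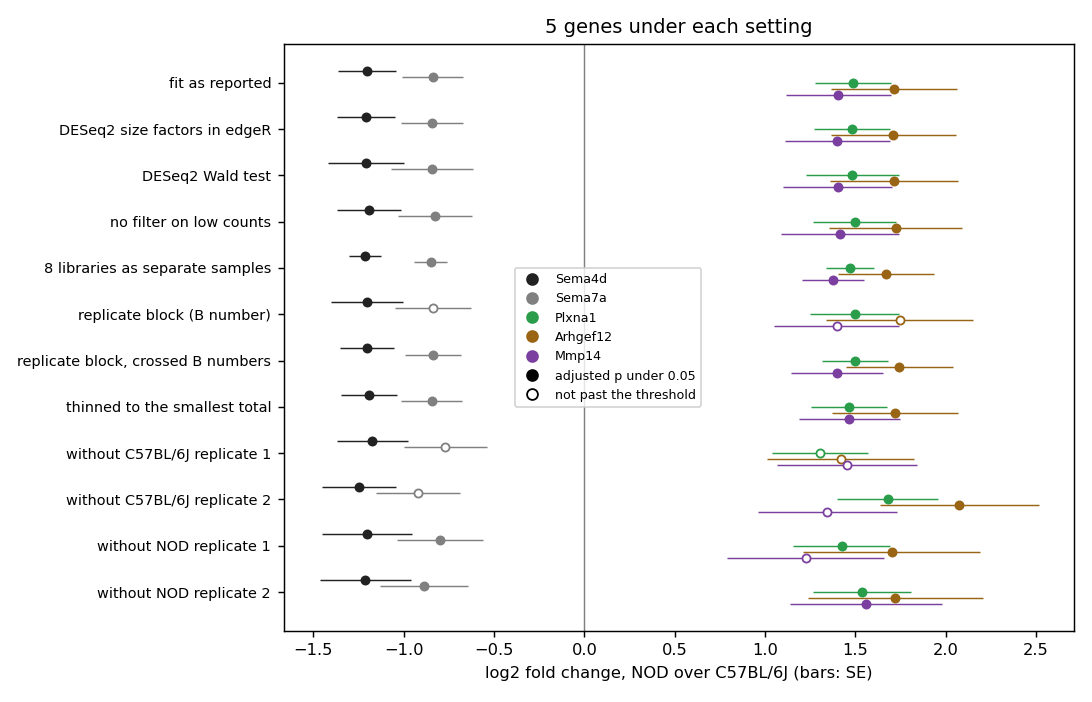
Log2 fold change, NOD over C57BL/6J (x axis, bars are SE), of Sema4d, Sema7a, Plxna1, Arhgef12 and Mmp14 under the reported fit and 11 alternatives (y axis); filled points passed an adjusted p of 0.05. Sema4d stays between -1.25 and -1.17, and Plxna1 between 1.30 and 1.68.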

How the data were processed

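For every library the authors deposited raw read counts by Ensembl gene identifier. Per the submitters' processing notes, STAR 2.5.0a, HTSeq 0.6.1 and the mouse build GRCm38 were used; the sources used here do not state the annotation release, the strand setting or any removal of duplicates. Symbols, coordinates and exon lengths came from GENCODE M21, which held 53360 of 53465 identifiers. Reads outside annotated genes (39.98% to 59.1% of listed reads) and ambiguous reads (0.695% to 2.38%) were not used. The 2 libraries of a sample differed by more than counting noise (chi-square per degree of freedom 2.96 to 61.2), so they are not copies of each other.

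Summed samples were filtered with filterByExpr, scaled by TMM and fitted in edgeR 4.0.16 (R 4.3.3) by robust quasi-likelihood with strain as the only term, two-sided, with Benjamini-Hochberg adjustment over 17291 genes and a threshold of 0.05. CPM use TMM-scaled totals. Fewer cells of a type and less RNA per cell cannot be told apart in bulk samples. Members and lists were chosen with earlier results of these data known. All listed members, the tested family genes, called partners, the 3 with the highest CPM of each partner list and the 5 genes most like Sema4d and Plxnd1 were named; Cd72, Arhgef11, Gipc1 and the marker and neighbour genes were added for their roles or positions after their values were seen. Alternatives were DESeq2 1.42.0 and its size factors, no filter, 8 separate libraries, a replicate block, thinning and leaving out each sample.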

Additional observations from a re-analysis of the deposited data

Results flagged for a closer look

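In Sema6c, NOD sample 2 library 2 stood at 6.91 CPM, apart from the other 3 NOD libraries at 6.29, 6.31 and 6.39 CPM. The gap divided by the range of the 4 libraries was 0.834, past the critical value of Dixon's test for 4 values. It was the only such library in 42 groups of 4 libraries (21 family genes in 2 strains), and chance gives about 1 in 20. Its spread is small beside the distance from the C57BL/6J libraries, the highest of which stood at 3.91 CPM.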

How the results depend on the processing

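The number of genes called over the whole table was 637, and it was 1188 with no filter on low counts, 1535 with 8 libraries as separate samples and 256 to 1389 when each sample was left out in turn. The number was 513 with the replicate block, 566 after thinning, 651 with DESeq2 size factors and 937 with DESeq2. Of the listed members, 2 were called, 1 with the replicate block (Sema4d) and 1 to 2 without each sample. Of the other family genes 1 was called, 2 with 8 separate libraries (Plxna1 and Sema6c, log2 fold change 1.02) and 0 to 1 without each sample. Of the partner genes 2 were called, 0 with the replicate block and 0 to 4 without each sample. Of 250 values for 23 named genes under 11 alternatives, 233 kept direction and side of the threshold, 10 fell below it and 1 rose above it. In 6 the sign turned, all for genes that were not called. Nrp2 went to -0.31 after thinning. Over leaving out each sample, Nrp2 ranged from -0.33 to 0.53, with -0.049 without NOD replicate 1, Plxna2 from -0.11 to 0.98, Nrp1 from -0.46 to 0.039 and Plxnb1 from -0.053 to 0.72. The cause was not tested. The samples share only a B number: deviations of same-numbered samples correlated at -0.12, and pairing them the other way, chosen after seeing the data, gave 768 calls. With no filter the median log2 fold change of all genes was 0.12 against 0.02. Plxnb2, with as few as 11 reads in a library, and Sema4a, with 21, are limited by depth.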
